A study of Mus musculus with 6 samples.

Results

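The transcription factor p53 and the genes it switches on, together with the core genes of apoptosis, were followed as a fixed set of 36 genes out of the 51912 in the deposited count table. All 36 had a row in the table and all 36 passed the filter on low counts that left 15240 genes for testing. They were chosen by symbol, from what is known of the pathway, but with earlier results of these data known. By role they were placed in 6 classes: p53 and its feedback genes (6), arrest and damage tolerance genes (6), death receptors (3), other death genes induced by p53 (4), the BCL2 family (11) and the caspases with their regulators (6). The libraries came from the testis of day 4 C57BL/6J pups, from THY1+ cells lacking c-KIT that are called spermatogonial stem cells, with 3 libraries of wild type and 3 of Bud31-vKO mice. In the latter Bud31, which encodes a protein of the spliceosome, was deleted by Cre recombinase acting on loxP sites. The labels name neither the Cre line nor the number of animals or cells behind a library, and nothing in them says that libraries came from separate mice, so p-values speak of these samples' spread alone, some or all of which may be technical. Wild type and Bud31-vKO were read from the column letters C and T, which the labels do not spell out.

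In healthy cells p53 is made and destroyed continuously, because MDM2, itself a product of a p53 target gene, marks it for degradation. DNA damage, faults in ribosome assembly and other stresses stabilise p53, which then binds a pair of half-sites near its targets and raises their transcription, either of genes that halt the cell cycle, such as Cdkn1a, or of genes that open the mitochondrial route to cell death, such as Bax and Bbc3. Since p53 is regulated mainly as a protein, its own mRNA is a weak measure of its activity, and the mRNA of its targets is the usual readout. In the testis, germ cell number is trimmed by apoptosis in early postnatal life, and the balance of BCL2 family proteins is known to set it.

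The binding motif shows which of these genes carry a p53 half-site just before an annotated start. The half-site consensus, a palindrome of 10 bases that reads the same on both strands, was searched without mismatches in the 250 bases before each start in RefSeq's GRCm38.p6 annotation. Windows were at hand for 30 of the 36 genes (43 windows, several genes having more than 1 start), and 10 of the 30 genes (33.3%) held at least 1 match, against 8.2% of the 27025 genes with a window. These genes were picked as p53 targets, so the share describes the choice. A match is not a bound site, and sites farther from the start or in introns lie outside the window. The stretches below belong to members whose levels are described in full, so that sequence and level can be set side by side. Capitals mark the half-sites.

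Cdkn1a, chr17:29090881-29090962, plus strand: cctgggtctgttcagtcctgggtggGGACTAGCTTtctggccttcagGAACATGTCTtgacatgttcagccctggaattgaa
Mdm2, chr10:117710910-117710969, minus strand: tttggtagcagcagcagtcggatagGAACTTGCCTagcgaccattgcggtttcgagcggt
Trp53, chr11:69580259-69580318, plus strand: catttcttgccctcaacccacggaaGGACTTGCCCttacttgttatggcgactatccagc
Rps27l, first match, chr9:66946178-66946237, plus strand: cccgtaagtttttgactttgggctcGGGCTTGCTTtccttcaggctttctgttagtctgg
Rps27l, other match, chr9:66946281-66946340, plus strand: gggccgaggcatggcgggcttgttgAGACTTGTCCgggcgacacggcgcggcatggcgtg
Polk, chr13:96519384-96519437, minus strand: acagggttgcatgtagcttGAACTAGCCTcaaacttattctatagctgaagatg
Aen, chr7:78895912-78895971, plus strand: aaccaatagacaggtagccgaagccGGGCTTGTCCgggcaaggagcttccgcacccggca
Bax, chr7:45467065-45467124, minus strand: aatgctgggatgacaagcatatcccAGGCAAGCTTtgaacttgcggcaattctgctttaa

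Of the stretches printed, that of Cdkn1a was the one with 2 marked half-sites near each other, 12 bases apart. They ended 42 bases before 1 of the 2 starts of Cdkn1a. Looser matches beside the marked half-sites were not searched for, so the 2 marked in Cdkn1a need not be the pair that p53 binds. Ccng1, Ei24 and Sesn1 held 1 match each. Like Cdkn1a, the genes Rps27l, Polk, Aen and Sesn1 had 2 starts, with matches before 1 of them. Those of Polk and Sesn1 lay well inside the gene, which for Polk spans 96480690 to 96542579 on the minus strand. The 10 genes with a match had a median log2 fold change (Bud31-vKO over wild type) of 0.40, with 8 above 0, and the 20 genes with a window and no match one of 0.07, with 11 above 0. Over all genes 51.1% lay above 0. The genes with a match included Trp53, Mdm2, Ccng1 and Rps27l of the feedback class. Those without were largely of the BCL2 family and caspase classes, so match and class cannot be told apart here. The difference between the 2 medians was not tested. No window was at hand for Bik, Perp, Pmaip1, Tnfrsf10b, Trp53inp1 and Zmat3.

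The libraries differed within each genotype, and this touches every value that follows. Totals ran from 13240704 to 18744466 reads, and reads were found for 18171 to 22300 genes in 4 libraries (wild type 1 and 2, Bud31-vKO 1 and 3; called gene-rich here), but for only 13762 in wild type library 3 and 12464 in Bud31-vKO library 2. The biological coefficient of variation, the spread beyond counting error, was 119% over all tested genes. Bud31, the deleted gene (chromosome 5, 145140362 to 145148078), stood at 138, 96.8 and 158 CPM (read counts relative to library size, TMM-scaled) in wild type, but at 47.2, 67.6 and 80.4 CPM in libraries 1 to 3 of Bud31-vKO. Among 18 tested markers of germ cells, 0 had a positive log2 fold change, and the sum of the 20 in the list was 3907 to 4922 CPM in wild type, set against 2127 to 2871 CPM in Bud31-vKO, while Dppa3 had no reads anywhere. In bulk samples fewer cells of a type and less RNA per cell cannot be told apart. Markers of other cells were present too: the summed level of 11 peritubular myoid and stromal genes was 10741 to 21822 CPM in wild type, set against 8631 to 14943 CPM in Bud31-vKO, above the germ cell sum in each library. The sum of 12 Sertoli markers was 129 to 459 CPM in wild type, set against 146 to 1695 CPM in Bud31-vKO, and that of 12 lymphocyte markers (Cd8a at 0) 14.9 to 145 and 158 to 742 CPM, without overlap. Of 10 Sertoli and of 10 lymphocyte markers tested, 9 each had a log2 fold change above 0. The sums of 7 Leydig (0 to 18.7 and 4.57 to 51.2 CPM), 7 endothelial (0.116 to 108 and 4.35 to 204 CPM) and 8 macrophage markers (12.1 to 211 and 13.3 to 159 CPM) overlapped between the genotypes. What part these lists have in the results was not tested.

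Bud31-vKO cells showed no change of the p53 and apoptosis genes that could be told from the spread between libraries. By edgeR's quasi-likelihood test 0 of the 36 genes passed at an adjusted p under 0.05, with 0% of all 15240 genes called higher and 0% called lower, and the adjusted p was 0.9997 for each of the 36. At an unadjusted p under 0.05 there were 0 of 36, against 2.91% of all genes, and DESeq2 called 0 of 36, against 0.314% of the genes it tested. At an unadjusted p under 0.05 DESeq2 had 1 of 36, Polk, against 5.03% of the genes with a p. The 36 genes had a median log2 fold change of 0.31, with 22 above 0 (61.1%, against 51.1% of all genes, whose median was 0.02). More than 2-fold higher were 7 of 36 (19.4%, against 17.1% of all genes) and more than 2-fold lower 1 of 36 (2.78%, against 15.2%). The median standard error of a log2 fold change was 0.74 over the 36 genes and 1.25 over all genes. For 6 of the 36 genes (16.7%, against 11.2% of all genes) the libraries of the 2 genotypes did not overlap: Polk, Bbc3, Bcl2 and Apaf1 were higher in Bud31-vKO (4.76% of all genes) and Bad and Diablo lower (6.39%).

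**Figure D1:**
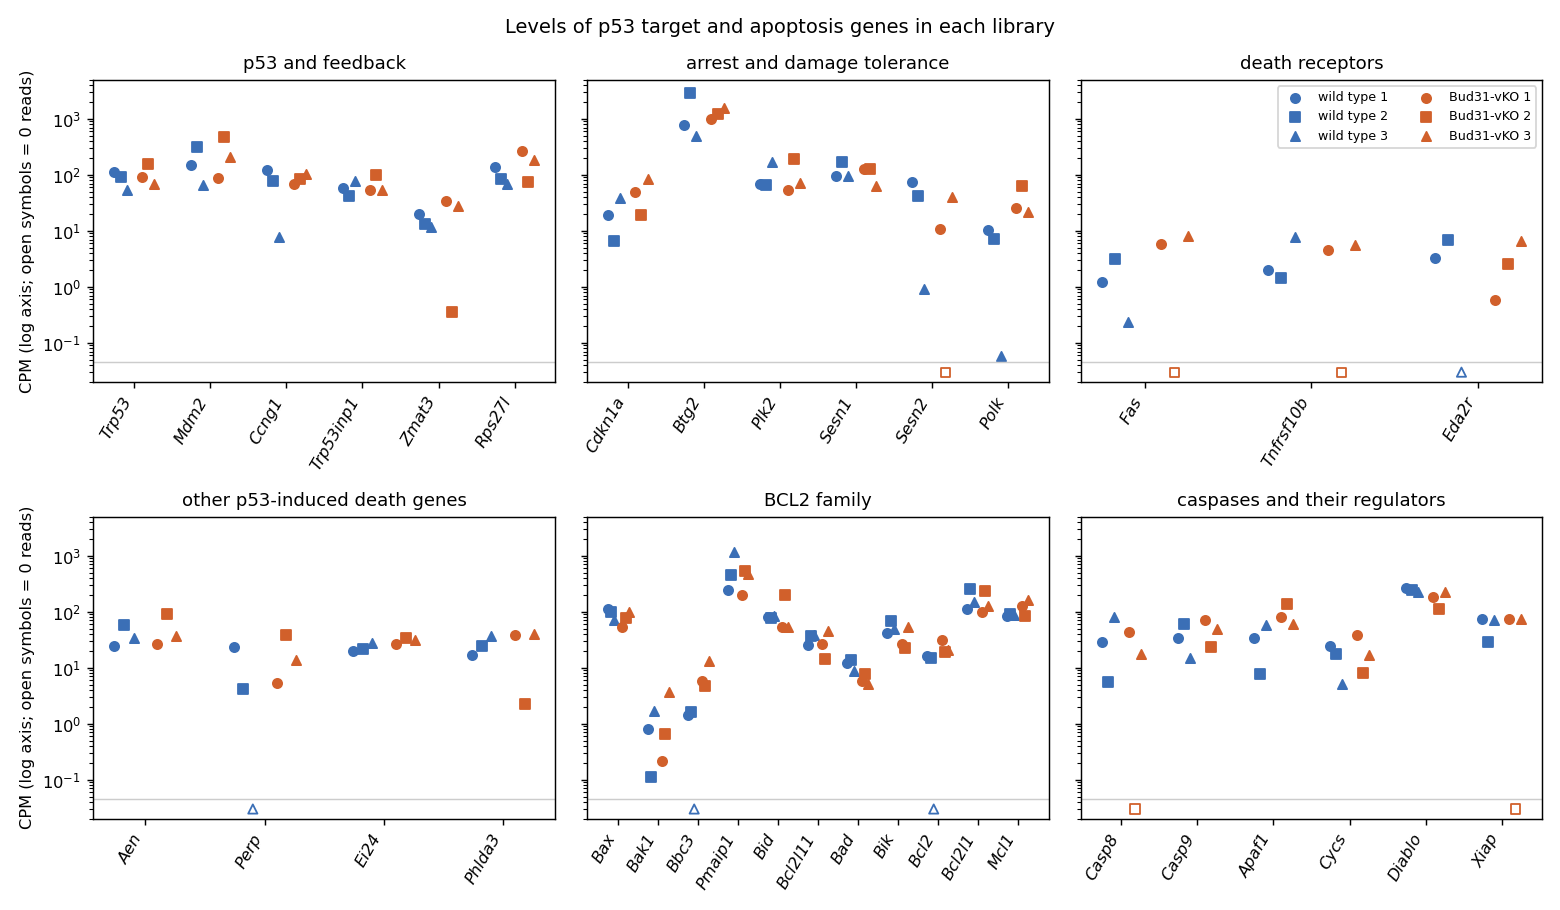
Level of each gene in each library, in CPM on a log axis, in 6 panels by class, with 1 symbol per library (circle, square and triangle for libraries 1 to 3) and open symbols below the grey line for 0 reads. Colours overlap for most genes, and all 9 open symbols belong to wild type library 3 (4) or Bud31-vKO library 2 (5).

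Trp53 mRNA overlapped between the genotypes. The gene for p53 (ENSMUSG00000059552, chromosome 11, 69580359 to 69591873) measured 115, 90.9 and 54.4 CPM in libraries 1 to 3 of wild type, set against 92.8, 158 and 68.0 CPM in Bud31-vKO libraries 1 to 3, where each genotype held both low and high libraries. Its log2 fold change was 0.30 with a 95% interval from -0.80 to 1.39, which leaves out a 2-fold fall and holds a 2-fold rise. Mouse Trp53 has 1 processed copy named in the annotation, so its count is uncertain where reads match both. Mdm2, the ubiquitin ligase that limits p53, ranged more widely, at 152, 315 and 66.4 CPM in wild type, set against 88.7, 472 and 205 CPM in Bud31-vKO. The highest Mdm2 level, like the highest Trp53 level, was in Bud31-vKO library 2, and without that library the log2 fold change of Mdm2 was -0.27 in place of 0.52.

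The other feedback genes did not separate the genotypes either. Rps27l, a ribosomal protein paralogue that is a direct p53 target and binds MDM2, measured 139, 82.8 and 69.2 CPM in wild type, set against 262, 75.3 and 185 CPM in Bud31-vKO. Libraries 1 and 3 of Bud31-vKO lay above all wild type libraries and library 2 within their range. Its log2 fold change came to 0.84, its standard error to 0.52 and the unadjusted p by edgeR to 0.145, the smallest of this class. Ccng1, which encodes cyclin G1 and helps to activate MDM2, had 0.32, Trp53inp1, a nuclear protein that promotes p53 phosphorylation, 0.25, and Zmat3, an RNA-binding protein, 0.48. Ccng1 dropped to 7.69 CPM in wild type library 3 and Zmat3 to 0.357 CPM in Bud31-vKO library 2, while in the remaining 5 libraries they lay at 69.8 to 122 and at 11.5 to 34.5 CPM. All 6 genes of the class lay above 0 on the log2 scale (median 0.40). This median was -0.03 in the 4 gene-rich libraries, 0.12 without Bud31-vKO library 2 alone, 0.24 without wild type library 3 alone and 0.65 without wild type library 1 alone.

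Cdkn1a, the inhibitor of cyclin-dependent kinases through which p53 halts the cell cycle, had a higher mean in Bud31-vKO with overlapping libraries. It measured 19.2, 6.52 and 38.2 CPM in wild type, set against 49.6, 19.1 and 84.4 CPM in Bud31-vKO (ENSMUSG00000023067, chromosome 17, 29090976 to 29100727). Bud31-vKO libraries 1 and 3 lay above all wild type libraries, and library 2 equalled wild type library 1 to within 1 CPM. The log2 fold change came to 1.26, its standard error to 0.88, from a mean of 21.3 ± 15.9 CPM to 51.1 ± 32.7 CPM (SD, n = 3 each; unadjusted p by edgeR 0.193). In the 4 gene-rich libraries it was 2.39 (standard error 0.71, unadjusted p by edgeR 0.0157, where 6.56% of all genes had one under 0.05), and the adjusted p by edgeR was 0.753. With 1 library left out it ranged from 0.69 (no Bud31-vKO library 3) to 2.0 (no wild type library 3), and it was 0.82 when wild type library 2 was dropped.

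Polk, a DNA polymerase that copies past damaged bases, had the largest difference of the arrest and damage tolerance class. Its levels were 10.3, 7.18 and 0.0582 CPM in wild type, the last from 1 read, and 25.4, 62.4 and 21.7 CPM in Bud31-vKO (ENSMUSG00000021668, chromosome 13, 96480690 to 96542579). Each Bud31-vKO library was above each wild type library. The log2 fold change was 2.64 with an interval from -0.85 to 6.13 and an unadjusted p of 0.118 by edgeR, and it was 2.09 when wild type library 3 was left out and 2.03 when Bud31-vKO library 2 was. DESeq2 gave an unadjusted p of 0.0435, which adjustment raised to 0.948.

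The other genes of this class showed no common direction. Btg2, an antiproliferative gene that is also an immediate early gene, was by length the most abundant of the 36, at 783, 2905 and 489 CPM in wild type, set against 1008, 1237 and 1575 CPM in Bud31-vKO, all 3 of the latter inside the wild type range. Plk2, a kinase induced by p53 and by growth signals, had a log2 fold change of 0.09, and Sesn1, a sestrin that restrains mTORC1, one of -0.19. Sesn2, the other sestrin, had -1.20 with an interval from -5.73 to 3.32. It was read at 73.8 and 41.4 CPM in wild type libraries 1 and 2 and at 10.96 and 39.5 CPM in libraries 1 and 3 of Bud31-vKO, but at 0.932 CPM in wild type library 3 and with 0 reads in Bud31-vKO library 2. The class had 3 genes above and 3 below 0, with a median of -0.02. That median was 0.48 without wild type library 2, the library with the most Btg2.

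Immediate early genes, which respond within minutes to tissue handling, were counted beside these genes. Of 21 tested, 17 lay above 0 on the log2 scale (median 0.25), and their summed level was 8600.3, 17637 and 22591 CPM in wild type, set against 11921, 20016 and 18876 CPM in Bud31-vKO. These sums overlapped. In this list Myc had 1.03 (58.5, 36.9 and 78.1 against 124, 101 and 129 CPM, unadjusted p by edgeR 0.039) and Klf6 1.20. Of the 21 genes, 1 had an unadjusted p under 0.05 by edgeR, against 2.91% of all genes. The part of handling in the levels of Btg2, Plk2 and Mcl1 was not tested.

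Death receptor genes were near the lower end of the measurable range. Fas, the receptor of the FAS ligand, measured 1.24, 3.20 and 0.233 CPM in wild type, set against 5.92, 0 and 8.13 CPM in Bud31-vKO, so libraries 1 and 3 of Bud31-vKO were above all wild type libraries and library 2 had no read. By counting error alone, a count of 0 there allows up to 0.214 CPM, the level of 3 reads. Tnfrsf10b, the mouse receptor of TRAIL, measured 2.04, 1.44 and 7.74 CPM against 4.53, 0 and 5.62 CPM. Eda2r, a receptor of the ectodysplasin A2 ligand and a p53 target, was at 3.28, 6.85 and 0 CPM in wild type, set against 0.585, 2.57 and 6.65 CPM in Bud31-vKO. With log2 fold changes of 1.58, -0.14 and -0.05 and standard errors of 2.06 to 2.19, the interval of each reached past a log2 value of 4 upward.

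The other p53-induced death genes had log2 fold changes from 0.05 to 1.10, and the genotypes overlapped for each of the 4. Aen, a nuclease that acts in apoptosis, measured 24.9, 58.6 and 33.3 CPM in wild type, set against 26.5, 90.8 and 37.3 CPM in Bud31-vKO, or a log2 fold change of 0.41. Ei24, a protein of the endoplasmic reticulum, was the steadiest gene of the class, at 23.2 ± 4.20 CPM in wild type, set against 30.6 ± 3.36 CPM in Bud31-vKO (SD, n = 3 each). Bud31-vKO library 1 at 26.8 CPM lay just below wild type library 3 at 27.9 CPM. Perp, a membrane protein of desmosomes and apoptosis, measured 23.0, 4.09 and 0 CPM in wild type, set against 5.41, 38.9 and 13.8 CPM in Bud31-vKO. Its log2 fold change of 1.10 was 0.10 with Bud31-vKO library 2 dropped and 3.23 with wild type library 1 dropped. Phlda3, a repressor of AKT signalling, measured 16.8 to 36.8 CPM in wild type, set against 38.9, 2.28 and 39.9 CPM in Bud31-vKO. Its log2 fold change of 0.05 was 0.60 without library 2 of Bud31-vKO. The median of the class was 0.40 over 4 genes, and 0.06 in the 4 gene-rich libraries.

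**Figure D2:**
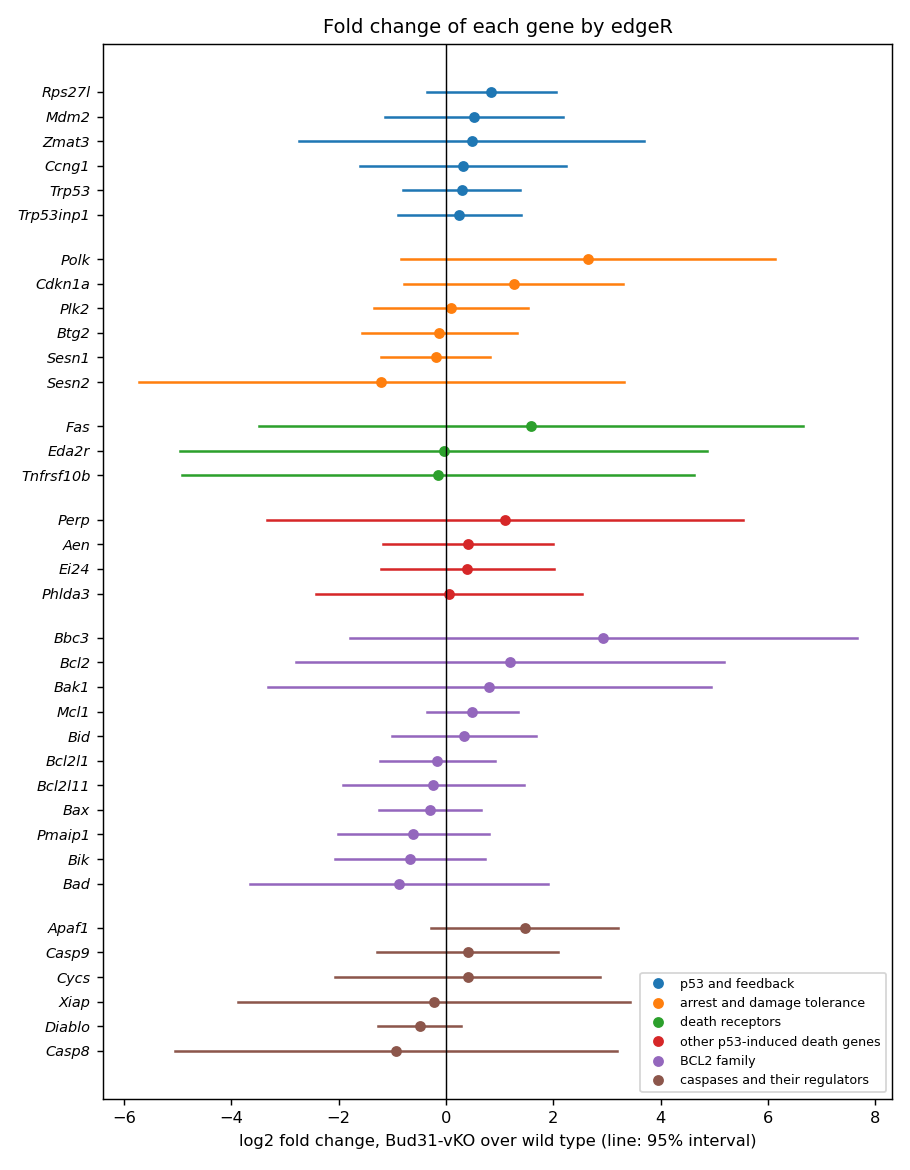
Log2 fold change of each gene (Bud31-vKO over wild type, points) with its 95% interval (lines) by edgeR, grouped and coloured by class. Each of the 36 intervals includes 0, and those of the death receptors, Sesn2 and Bbc3 are the widest.

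In the BCL2 family, which decides whether the outer mitochondrial membrane is opened, the pore formers overlapped between the genotypes. Bax measured 112, 97.3 and 72.3 CPM in wild type, set against 53.7, 78.0 and 97.6 CPM in Bud31-vKO (ENSMUSG00000003873, chromosome 7, 45461697 to 45466898), with overlapping libraries and a log2 fold change of -0.29 (interval -1.24 to 0.65). Bax was thus measured closely enough that a 2-fold rise lay outside its interval. Bak1, the other pore former, was hardly read, at 0.110 to 1.69 CPM in wild type, set against 0.219 to 3.70 CPM in Bud31-vKO, and its exons overlap Ggnbp1 on the opposite strand. Summed per kilobase of longest transcript, Bax and Bak1 stood at 102, 88.5 and 66.4 CPM per kb in wild type and 48.9, 71.2 and 90.3 CPM per kb in Bud31-vKO.

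Genes of the BH3-only proteins, which sense damage and set off the pore formers, showed no common direction: 2 of 6 lay above 0 on the log2 scale (median -0.42). Bbc3, which encodes PUMA and is a strong p53 target, measured 1.46, 1.60 and 0 CPM in wild type (20, 29 and 0 reads) and 5.70, 4.78 and 13.1 CPM in Bud31-vKO (78, 67 and 177 reads; ENSMUSG00000002083, chromosome 7, 16308393 to 16318205). Every Bud31-vKO library was above every wild type library. The log2 fold change of 2.94, the largest of the 36, carried a standard error of 2.04 (unadjusted p by edgeR 0.188), and it was 2.35 without Bud31-vKO library 3. Pmaip1, which encodes NOXA, followed Btg2 in abundance by length in wild type and had a lower mean in Bud31-vKO. Its levels were 242, 458 and 1151 CPM in wild type, set against 201, 537 and 477 CPM in Bud31-vKO, and its log2 fold change of -0.61 was 0.23 without wild type library 3.

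Bad, a BH3-only protein held in check by growth factor signalling, was lower in each Bud31-vKO library (5.77, 7.85 and 5.10 CPM) than in any wild type library (12.2, 13.5 and 8.68 CPM). Its log2 fold change came to -0.88, its standard error to 1.20 and the unadjusted p by edgeR to 0.487. The exons of Bad overlap Gpr137 on the opposite strand, which was counted at 0.0582 to 2.99 CPM in wild type, set against 0.214 to 2.12 CPM in Bud31-vKO. Bik, a BH3-only protein known in germ cells, had -0.67 (41.5, 69.4 and 49.9 against 26.2, 22.4 and 52.6 CPM), and Bcl2l11, which encodes BIM, -0.23. Bid, which carries the death receptor signal to mitochondria, was even in wild type at 80.2 ± 2.60 CPM (SD, n = 3), while Bud31-vKO libraries measured 54.1, 198 and 52.3 CPM. Its exons overlap Bcl2l13, so reads there are uncertain, as the strand setting of the counting is not known.

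Of the genes that guard against cell death, Bcl2 did not overlap between the genotypes and Mcl1 and Bcl2l1 did. Bcl2 measured 16.2, 15 and 0 CPM in wild type, set against 31.2, 19.5 and 20.6 CPM in Bud31-vKO (ENSMUSG00000057329, chromosome 1, 106538178 to 106714274). The log2 fold change came to 1.19, its standard error to 1.72 (unadjusted p by edgeR 0.509), and it was 0.63 without wild type library 3, which had no Bcl2 read. Mcl1, a short-lived guard needed by many cells, was nearly level in wild type at 85.6, 91.8 and 86.9 CPM and measured 128, 84.9 and 159 CPM in Bud31-vKO, where library 2 alone was below the wild type libraries. Its log2 fold change came to 0.49, its standard error to 0.37 (unadjusted p by edgeR 0.219). Bcl2l1, which encodes BCL-XL, had -0.17 (111, 252 and 150.3 against 97.0, 234 and 126 CPM). The 3 guards together stood at 70.6, 127 and 83.9 CPM per kb in wild type and 79.5, 119 and 98.4 CPM per kb in Bud31-vKO, with overlap. Bcl2l1 and Mcl1 are spliced into forms of opposite effect, and counts per gene do not separate them.

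Among the caspases and their regulators Apaf1 had the smallest unadjusted p by edgeR of all 36 genes. Apaf1, the scaffold of the apoptosome that activates caspase 9, measured 33.8, 7.68 and 58.6 CPM in wild type, set against 81.7, 135 and 59.2 CPM in Bud31-vKO (ENSMUSG00000019979, chromosome 10, 90989311 to 91082770). The groups did not overlap, but Bud31-vKO library 3 exceeded wild type library 3 by under 1 CPM. The log2 fold change came to 1.46, its standard error to 0.75 and the unadjusted p by edgeR to 0.0891, and it was 0.99 without wild type library 2 and 2.18 without wild type library 3. Cycs, which encodes cytochrome c, the trigger of the apoptosome, had 0.40, with 2 processed copies named in the annotation. Casp9, the caspase that the apoptosome activates, also had 0.40, which became 0.03 when Bud31-vKO library 1 was dropped, 0.05 when wild type library 3 was and 0.95 when wild type library 2 was.

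Diablo, whose product leaves mitochondria and blocks the caspase inhibitor XIAP, was lower in each Bud31-vKO library. It measured 260.0, 244 and 225 CPM in wild type, set against 182, 113 and 223 CPM in Bud31-vKO (ENSMUSG00000029433, chromosome 5, 123509765 to 123524176), and the nearest libraries differed by under 2 CPM. The log2 fold change came to -0.49, its standard error to 0.33, the smallest error of the 36, and the interval from -1.26 to 0.28 leaves out a 2-fold rise. The exons of Diablo overlap Gm49027 on the same strand, for which no level is given here. On the opposite strand they overlap AC157931.1 and B3gnt4, counted at up to 8.18 and at 0 CPM. Xiap itself stood at 74.9, 28.4 and 70.2 CPM in wild type and at 75, 0 and 73.8 CPM in Bud31-vKO. Casp8, the caspase of the death receptors, ranged from 5.63 to 79.8 CPM in wild type and from 0 to 43.1 CPM in Bud31-vKO.

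Dropouts followed the libraries with few genes detected. The 36 genes had 0 reads in 9 of their values: Eda2r, Perp, Bbc3 and Bcl2 in wild type library 3 (11.1% of the 36, against 21% of all tested genes) and Sesn2, Fas, Tnfrsf10b, Casp8 and Xiap in Bud31-vKO library 2 (13.9%, against 26.2%). In the other 4 libraries 0 of the 36 were without reads, against 0.846% to 5.12% of tested genes. Xiap with no read in 1 library and 998 reads or more in the other 2 of its genotype shows the size of such gaps. Bud31-vKO library 2 also held the highest level of 10 of the 36 (27.8%, against 19.4% of tested genes), among them Trp53, Mdm2, Polk, Aen, Bid and Apaf1. It had the lowest level of 11 of the 36, against 28.4% of tested genes. It held the highest sum of lymphocyte markers, 742 CPM, and the part of these in the levels was not tested.

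**Figure D3:**
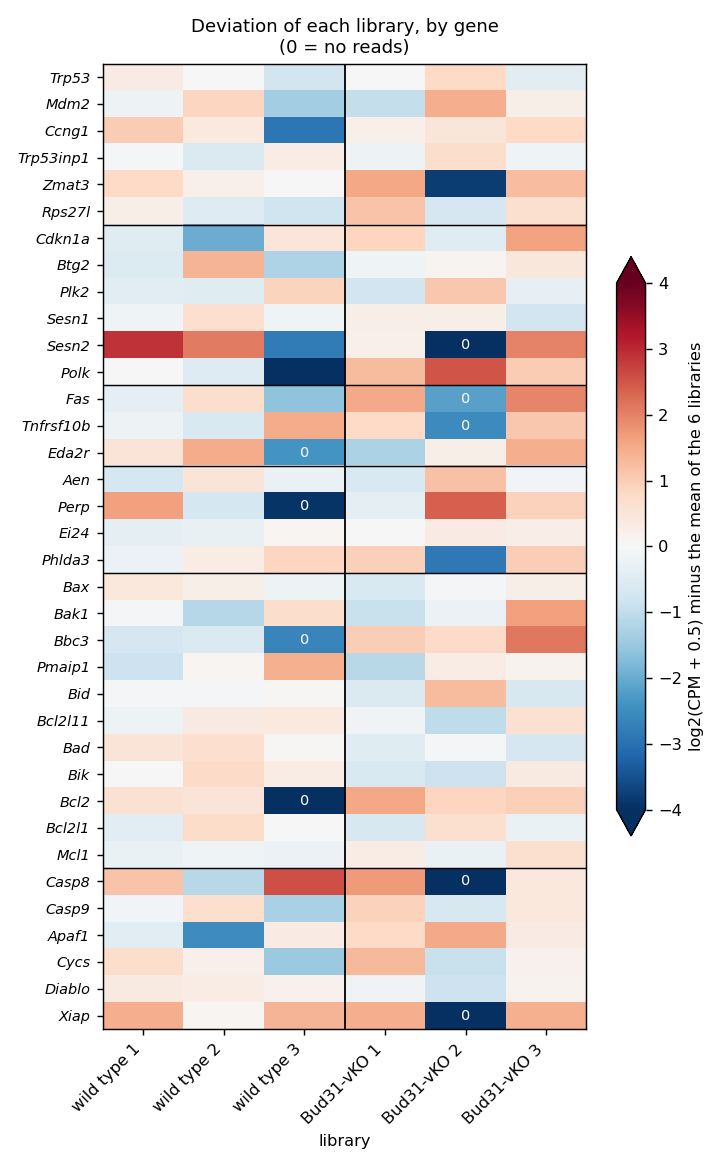
Deviation of each library from the gene's mean over the 6 libraries, on the scale log2(CPM + 0.5), with genes in rows by class and libraries in columns. The strongest blues lie in wild type library 3 and Bud31-vKO library 2, where a printed 0 marks the 9 values without reads.

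Leaving out single libraries moved the medians of 4 of the 6 classes across 0. The median over all 36 genes stayed between 0.11 (without Bud31-vKO library 2) and 0.42 (without Bud31-vKO library 1), and those of the p53 feedback class and the other p53-induced death genes stayed above 0 when any 1 library was left out. The median of the BCL2 family was -0.17 with all libraries, and it was 0.23 or 0.22 when wild type library 3 or 2 was dropped, 0.10 when Bud31-vKO library 1 was and -0.51 when Bud31-vKO library 3 was. That of the caspases and their regulators was 0.09, and it was -0.42, 0.56 and -0.12 without Bud31-vKO libraries 1, 2 and 3 and -0.02 without wild type library 2. That of the 3 death receptors was -0.05, with a lowest value of -0.72 (no Bud31-vKO library 3) and a highest of 0.98 (no wild type library 2).

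**Figure D4:**
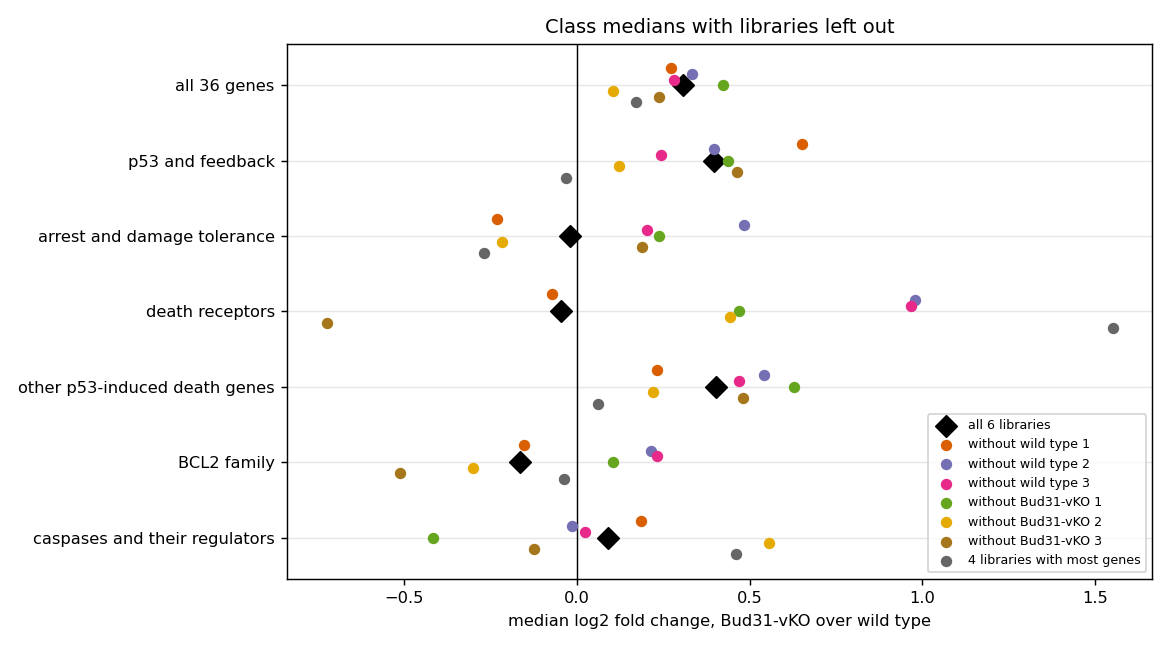
Median log2 fold change (Bud31-vKO over wild type) of all 36 genes and of each class, with all 6 libraries (black diamonds), without each library in turn, and in the 4 gene-rich libraries (dots). The medians of the arrest, death receptor, BCL2 and caspase classes lie on both sides of 0, as does that of p53 and its feedback genes through the gene-rich libraries (-0.03).

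In the 4 gene-rich libraries the direction within the set split by gene. Of the 36 genes 19 lay above 0 on the log2 scale (median 0.17), against 52.6% of all genes. Cdkn1a (2.39) and Rps27l (1.02, unadjusted p by edgeR 0.0453) were the 2 with an unadjusted p under 0.05 (6.56% of all genes had one). Of the others, the highest values were Bbc3 2.62, Bak1 2.10, Apaf1 1.78, Fas 1.67, Tnfrsf10b 1.55 and Polk 1.45. Next came Phlda3 0.94, Zmat3 0.91, Casp8 0.81, Bcl2 0.74 and Mcl1 0.70. Bak1, Fas and Tnfrsf10b were read at low levels. Without overlap of the genotypes there were 12 genes higher in Bud31-vKO (33.3% of the 36, against 19.4% of all genes) and 4 lower (11.1%, against 20.1%). The lowest values in these libraries were Bad -1.23, Sesn2 -1.18, Bcl2l1 -0.69, Mdm2 -0.66 and Bid -0.56. Trp53 had -0.34, Ccng1 -0.19, Aen -0.38 and Bax -0.46. By edgeR 0 genes passed there, with a smallest adjusted p of 0.753.

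Further genes of the pathway, 77 in 5 lists, did not separate the genotypes as a group. A positive log2 fold change was found for 40 of 70 tested (median 0.05), and 0 passed by edgeR. The genotypes did not overlap for 7 of the 70 (10%, against 11.2% of all genes). An unadjusted p under 0.05 by edgeR was found for 3 of the 70, against 2.91% of all genes. Both counts include Cdkn2a, whose place in them carries no weight because of how it passed the filter (below). The genes named here had the smallest p by edgeR of their lists. Cdkn2a, which encodes p16 and ARF, the protein that shields p53 from MDM2, had 12, 44 and 28 reads in wild type libraries and 0 in each Bud31-vKO library. Its mean in wild type was 1.65 CPM, and 3 reads per library in Bud31-vKO would be 0.218 CPM on average. That floor covers counting error only, so no fold is given. Since Cdkn2a passed the filter on low counts through the wild type libraries alone, no p is given for it. Gadd45b, a stress gene that p53 can induce, measured 115, 237 and 132 CPM in wild type, set against 262, 265 and 559 CPM in Bud31-vKO, without overlap (log2 fold change 1.17, unadjusted p by edgeR 0.0307). Parp1, which marks DNA breaks and is cut by caspases, was lower without overlap, at 329, 481 and 350.0 CPM against 146, 240.6 and 249.997 CPM (log2 fold change -0.87, unadjusted p by edgeR 0.0303).

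By list, the p53 upstream genes and cofactors had 9 of 15 tested above 0 (median 0.05), with Trp63 and Trp73, the p53 relatives, below the filter. Ep300, a coactivator of p53, had 0.63. The further p53 targets had 13 of 23 above 0 (median 0.09), among them Thbs1, which restrains vessel growth, with 2.73. The further death receptor genes had 6 of 10 above 0 (median 0.12), with Tnfsf10, the TRAIL ligand, at 59.9 CPM in Bud31-vKO library 2 and at most 3.50 CPM elsewhere, and Tnfrsf1a at 1.20. In the further BCL2 family 4 of 7 were above 0 (median 0.10). There Bnip3, a mitophagy gene, measured 45.9, 49.3 and 59.7 CPM against 28.9, 17.0 and 17.5 CPM without overlap, and Bcl2l13 had -0.45. The further caspases and execution genes had 8 of 15 above 0 (median 0.03), with the caspase inhibitor Birc2 at 1.52. Birc2 measured 166, 351 and 38.0 CPM in Bud31-vKO, the last below all wild type libraries (52.3 to 73.3 CPM), and its log2 fold change was 0.67 with Bud31-vKO library 2 dropped.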

How the data were processed

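Smart-Seq2 libraries of sorted testis cells were sequenced from 3 wild type and 3 Bud31-vKO samples. The deposited table holds raw read counts for each Ensembl gene, not scaled, as their unequal totals show; bcl2fastq and build mm10 are named, per the submitters' processing notes, while aligner, counting tool, annotation release and strand setting were not given in the sources used here. Symbols, positions and lengths came from GENCODE M21 (GRCm38), which gave a symbol for 51719 of 51912 identifiers. Low genes were removed by filterByExpr (edgeR 4.0.16; counts of at least 10, totals of at least 15), and the rest were TMM-scaled and compared by the quasi-likelihood F test over all 6 libraries, with Benjamini-Hochberg adjustment over all 15240 genes at 5%. Standard errors and 95% intervals were derived from the F statistic, CPM carry the TMM factors, and a level of 3 reads (0.166 to 0.222 CPM) was taken as the floor, which covers counting error only. An exact permutation test of 3 against 3 libraries cannot go below 0.1, so none was used. The steps were also run on simulated counts, whose spread was well below the 119% of these libraries and which modelled no dropouts. That run does not cover data of this spread. Levels in every library were given for Trp53, Cdkn1a, Mdm2, Bax, Bcl2, Mcl1, the 2 smallest p by edgeR of each class and all genes without overlap. The 2 smallest p by edgeR of each further list were named. Other genes of the set are given by level or range, chosen after their values were seen. The 36 genes, the lists and the alternatives were chosen with earlier results of these data known. A further marker list is not reported here. R 4.3.3, limma 3.58.1, DESeq2 1.42.0, Python 3.11.15 and matplotlib 3.10.9 were used.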

Additional observations from a re-analysis of the deposited data

How the results depend on the processing

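The alternatives numbered 17, but 16 for Fas, Tnfrsf10b, Eda2r, Bak1 and Bbc3, which did not pass a filter of 5 CPM in 3 libraries. In those run for each, 15 of the 36 genes kept the sign of their log2 fold change, and 21 turned in at least 1. Those that kept it were 10 above 0 (Rps27l, Cdkn1a, Polk, Fas, Ei24, Bbc3, Bcl2, Mcl1, Casp9 and Apaf1) and 5 below (Sesn2, Bax, Bad, Bik and Diablo). Genes called over the whole table were 7 with no filter on low counts and 47 by DESeq2, in place of 0, and 0 of the 36 were among them; the cause was not tested. With 1 library left out in turn, the median of the 36 ranged from 0.11 to 0.42 and that of the arrest and damage tolerance class from -0.23 to 0.48. In the 4 gene-rich libraries the median was -0.030 for p53 and its feedback genes, 0.061 for the other p53-induced death genes and 1.55 for the death receptors, none of which passed a filter of 5 CPM in 3 libraries, so that no value was had there. The log2 fold changes that turned in the 4 libraries were Trp53 -0.34, Mdm2 -0.66, Ccng1 -0.19, Plk2 -0.062, Tnfrsf10b 1.55, Aen -0.38, Perp -0.48, Bid -0.56, Bcl2l11 0.21, Casp8 0.81, Xiap 0.54 and Tnfsf10 -0.93. With limma-voom Zmat3 had -1.0, Btg2 0.24, Eda2r 1.35 and Phlda3 -0.78, and Eda2r had 0.026 both with DESeq2 and with its size factors in edgeR. With 1 library left out in turn, those that turned ranged, for Trp53, from -0.10 to 0.55, Mdm2 -0.27 to 1.21, Ccng1 -0.19 to 0.99, Trp53inp1 -0.11 to 0.51, Zmat3 -0.081 to 1.06, Btg2 -0.51 to 0.99, Plk2 -0.67 to 0.72, Sesn1 -0.34 to 0.14, Tnfrsf10b -0.72 to 0.97, Eda2r -1.10 to 0.98, Aen -0.28 to 0.82, Phlda3 -0.34 to 0.60, Bak1 -1.0 to 1.74, Pmaip1 -0.99 to 0.23, Bid -0.58 to 0.67, Bcl2l11 -0.73 to 0.10, Bcl2l1 -0.61 to 0.22, Casp8 -2.14 to 0.23, Cycs -0.32 to 0.89, Xiap -0.64 to 0.37 and Tnfsf10 -0.35 to 6.05. The ranges of genes that did not turn were Rps27l 0.44 to 1.21, Cdkn1a 0.69 to 2.0, Sesn2 -2.82 to -0.34, Polk 2.03 to 3.33, Fas 0.92 to 2.65, Perp 0.10 to 3.23, Ei24 0.30 to 0.58, Bax -0.51 to -0.073, Bbc3 2.35 to 3.41, Bad -1.06 to -0.75, Bik -1.14 to -0.43, Bcl2 0.63 to 1.66, Mcl1 0.27 to 0.71, Casp9 0.031 to 0.95, Apaf1 0.99 to 2.18, Diablo -0.72 to -0.26, Gadd45b 0.71 to 1.54, Tnfrsf1a 0.69 to 1.72, Bcl2l13 -1.09 to -0.11, Birc2 0.67 to 2.0 and Klf6 0.78 to 1.76. The cause of these changes was not tested.

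Both genotypes number their libraries 1 to 3, but the labels do not state pairs, so the numbers were not taken as pairs. Deviations of same-numbered libraries correlated at 0.191, 0.041 and -0.076. Wild type libraries 1 and 2 correlated best with the same number. Wild type library 3 correlated best with Bud31-vKO library 2 (0.11), and these 2 are the libraries with few genes detected. These values do not settle whether libraries were paired. With the replicate block 0 genes were called, as without it, the median of the 36 was 0.25 with 20 above 0, and Zmat3 had -0.43, Btg2 0.28, Plk2 -0.019 and Phlda3 -0.53.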
